A study of Homo sapiens with 10 samples.

Results

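The 9 genes described here mark the epithelial or the mesenchymal state of a cell: CDH1, CDH3, ESRP1, GRHL2, OVOL1, VIM, FN1, ZEB1 and SNAI2. They were taken by name, and all array probe sets annotated to exactly 1 of these symbols were used, which gave 22 of the 54675 probe sets and 9 of the 19775 genes that the array measured with a single-symbol probe set. The brightest probe set of a gene, by mean log2 signal, stands for the gene, and its other probe sets are given beside it. On that probe set 8 of the 9 genes reached the minimum mean log2 signal of 6.25 set for testing. SNAI2 did not.

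The study asked how asymmetric dimethylarginine (ADMA), a methylated arginine that inhibits nitric oxide synthases, changes the transcriptome of serum-starved LoVo cells, an established human line derived from a colorectal adenocarcinoma. RNA was hybridized to 10 Affymetrix HG-U133 Plus 2.0 arrays. The ADMA group was 4 cultures kept for 96 h without serum in the presence of 10 μM ADMA, and the serum-starved (SS) group was 3 cultures kept for 96 h without serum or ADMA. The control (C) group was 3 cultures kept for 96 h in medium with 10% fetal bovine serum. The labels call the arrays of a group biological replicates of 1 cell line, so the p-values measure the spread between these cultures, and the number of arrays limits the precision.

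Epithelial cells are held together by cadherins at adherens junctions, and factors such as GRHL2 and OVOL1 with the splicing regulator ESRP1 maintain that state. In an epithelial-mesenchymal transition, ZEB1 and SNAI2 bind E-box sequences and repress CDH1, while cells gain the filament protein vimentin and the matrix protein fibronectin. Many carcinoma cells carry markers of both states at once, and colorectal carcinoma lines differ widely in where they stand.

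VIM and FN1 were both higher in ADMA-treated than in SS cells, so the 250 bases before their transcript starts are shown, as RefSeq gives them in GRCh38.p14. The FN1 window is chr2:215436069-215436318 on the minus strand and the VIM window is chr10:17227991-17228240 on the plus strand. Capitals mark every match, on either strand, to the cyclic AMP response element TGACGTCA, CCAAT, the TATA-type motif TATAA, the AP-1 motif TGANTCA and the E-box CACCTG.
FN1: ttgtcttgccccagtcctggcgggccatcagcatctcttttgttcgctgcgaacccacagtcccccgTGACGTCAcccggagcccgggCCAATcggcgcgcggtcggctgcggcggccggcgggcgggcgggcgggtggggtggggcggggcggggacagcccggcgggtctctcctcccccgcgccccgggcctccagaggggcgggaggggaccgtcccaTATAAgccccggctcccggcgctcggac
VIM: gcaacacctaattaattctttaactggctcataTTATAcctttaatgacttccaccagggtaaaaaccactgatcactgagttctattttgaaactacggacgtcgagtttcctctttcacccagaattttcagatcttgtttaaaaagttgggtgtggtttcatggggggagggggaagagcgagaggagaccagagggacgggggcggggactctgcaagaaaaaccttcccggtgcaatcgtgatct

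The FN1 window held TGACGTCA from 183 to 176 bases before the start, CCAAT from 162 to 158 and TATAA from 28 to 24, and the 3 matches do not overlap. In the VIM window the only match was TATAA on the other strand, printed as TTATA, from 217 to 213 bases before the start. Neither window held CACCTG or TGANTCA. Among 35116 windows of the same length, 1.65% held TGACGTCA, 32.0% CCAAT, 18.9% TATAA, 6.57% TGANTCA and 17.5% CACCTG on either strand. The GC content was 76.4% in the FN1 window and 46% in the VIM window, against a median of 58% over all windows. ZEB1 matched 7 windows, which are not shown, and CDH1, CDH3, ESRP1, GRHL2, OVOL1 and SNAI2 matched none.

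The trimmed mean signal was 500.1 on each of the 10 arrays, whereas the median signal was 91.9 to 98.1 on ADMA arrays, 87.5 to 90.7 on SS arrays and 60.7 to 73.1 on C arrays. Correlations between arrays of the same group were 0.984 to 0.987. The ratio of the 3' to the 5' probe set of ACTB, a sign of RNA integrity, was 1.02 to 1.05 in ADMA cells, 1.13 to 1.23 in SS cells and 1.01 to 1.08 in C cells, and the 28S ribosomal RNA signal was 795 to 1052 in ADMA cells, 1345 to 2014 in SS cells and 501 to 634 in C cells. All 12 markers of colorectal epithelium passed the filter, and their summed signal was 157810 to 180400 in ADMA cells, 121070 to 139190 in SS cells and 89002 to 90154 in C cells. These sums weigh the brightest markers most, and the markers did not move together. Of the 12, 5 were called higher and 3 lower in SS than in C cells, against 30.3% and 27.3% of all genes. Their median log2 difference was 0.13. The 3 lower were CDX1 (-2.04), CDX2 (-1.33) and GPA33 (-0.73). In ADMA relative to SS cells 9 were called higher and 0 lower, against 15.7% and 13.8% of all genes. After quantile normalization 5 were higher and 0 lower. The split was also 5 and 0 with each array centred on its median log2 signal. Of the 12 fibroblast markers 4 passed, with PDGFRB under background on all arrays, and their sums overlapped between the groups, at 862 to 1138 in ADMA cells, 978 to 1163 in SS cells and 974 to 1215 in C cells. Of these 4, LUM was called higher in SS than in C cells (log2 1.47) and lower in ADMA than in SS cells (-0.90). On LUM 1 of the C arrays was under background. The other tested fibroblast markers, COL1A1, DCN and FBLN1, were not called in any comparison. The endothelial sums overlapped as well, at 588 to 904 in ADMA cells, 633 to 781 in SS cells and 641 to 733 in C cells, and 2 of 10 markers passed with TIE1 under background on all arrays. The leukocyte sums, with 3 of 8 markers passing, were 1681 to 2420 in ADMA cells, 4266 to 4937 in SS cells and 680 to 993 in C cells, carried by LYZ, the gene of lysozyme, which averaged a log2 signal of 10.61 in ADMA cells, 12.03 in SS cells and 8.99 in C cells. The other tested leukocyte markers, CD3E and ITGAM, were not called in any comparison, and PTPRC, which defines leukocytes, and CD14 were under background on all arrays. The part of these differences in the results below was not tested. In a culture measured in bulk, a change in the number of cells of one state and a change in RNA per cell cannot be told apart.

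Serum starvation raised 4 of the 8 tested genes and lowered none. They were the epithelial CDH1 and ESRP1, the mesenchymal VIM and, from a control level near background, ZEB1. ZEB1 reached the minimum signal for testing only through the arrays without serum, on which it was high, and FN1 only through the ADMA arrays, so the counts and medians over the 8 genes are descriptions. The same holds for the p-values of ZEB1 against C cells and of FN1 in ADMA cells among the filtered genes, and for the ranks of FN1. Their p-values with no filter are given below. A gene was called at a Benjamini-Hochberg adjusted p under 0.01 in limma and a fold of at least 1.2. By that rule 30.3% of the 12342 genes tested were higher in SS than in C cells and 27.3% were lower, or 57.6% in either direction, so that a call by itself was common in this comparison. The median log2 difference was 1.0 over the 8 genes and 0.07 over all genes. SS and C arrays did not overlap for 5 of the 8 genes, against 71.3% of all genes.

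ADMA added to serum-free medium raised VIM, FN1 and CDH3 and lowered CDH1 by a small amount, relative to serum-free medium alone. Background was 15.7% of genes higher and 13.8% lower, or 29.5% in either direction, and the groups did not overlap for 5 of the 8 genes, against 46.1% of all genes. The median log2 difference was -0.14 over the 8 genes and 0.03 over all genes.

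Against control cells, ADMA-treated cells had 6 of the 8 genes higher and 0 lower, against 26.6% of all genes higher, 23.2% lower and 49.8% in either direction. GRHL2 and OVOL1 were not called. The groups did not overlap for 5 of the 8 genes, against 61.9% of all genes, and the median log2 difference was 1.12 over the 8 genes and 0.07 over all genes. The 3 comparisons share arrays, so they are not independent of each other.

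**Figure D1:**
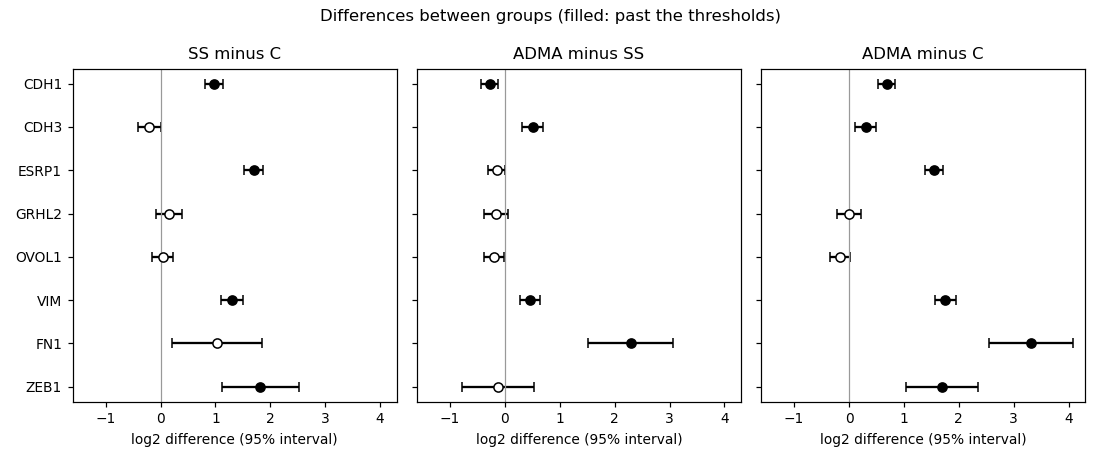
Log2 difference in signal (x axis) of the 8 tested genes (y axis) in 3 panels, SS minus C, ADMA minus SS and ADMA minus C, with 95% intervals from limma and filled points where called. FN1 had the largest difference among the 8 genes in both ADMA comparisons, at 2.29 against SS and 3.32 against C, while the intervals of GRHL2 included 0 in all 3 panels.

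CDH1 encodes E-cadherin, the main adhesion protein of epithelial adherens junctions. Its log2 signal was 13.34, 13.26, 13.26 and 13.27 in ADMA cells, 13.61, 13.48 and 13.58 in SS cells, and 12.42, 12.58 and 12.78 in C cells. The 3 groups did not overlap, with SS cells highest, ADMA cells between and C cells lowest. CDH1 rose 1.95-fold in SS relative to C cells, a log2 difference of 0.97 (SE 0.08, limma adjusted p = 3.35e-08), and was 1.61-fold higher in ADMA than in C cells. It fell 1.21-fold in ADMA relative to SS cells, a log2 difference of -0.28 (SE 0.07, limma adjusted p = 0.00577), just past the fold minimum of 1.2. That call was lost without SS replicate 1 (-0.25, adjusted p = 0.0292), SS replicate 3 (-0.26, adjusted p = 0.0192) or ADMA replicate 2, 3 or 4 (-0.27 each, adjusted p = 0.0154, 0.0143 and 0.0141).

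The other CDH1 probe set, 201130_s_at, averaged 10.71 ± 0.05 in ADMA cells, 10.86 ± 0.22 in SS cells and 10.15 ± 0.14 in C cells (log2 signal, SD, n = 4, 3 and 3). It rose by 0.71 on the log2 scale in SS relative to C cells, and its ADMA and SS arrays overlapped, with a difference of -0.15 that was not called (limma adjusted p = 0.25). The lower CDH1 of ADMA relative to SS cells was therefore called on 1 of its 2 probe sets.

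CDH3 encodes P-cadherin, a relative of E-cadherin found in basal epithelium, and RefSeq places it next to CDH1 on chromosome 16 with 0 protein-coding genes starting between them. Log2 signals were 11.18, 11.52, 11.28 and 11.30 in ADMA cells, 10.79, 10.80 and 10.84 in SS cells, and 10.87, 11.22 and 10.95 in C cells. All ADMA arrays were above all SS arrays, and SS arrays lay below all C arrays. CDH3 rose 1.43-fold in ADMA relative to SS cells, a log2 difference of 0.51 (SE 0.09, limma adjusted p = 0.000369). The SS minus C difference of -0.21 (SE 0.10, 95% interval -0.41 to -0.00) was not called, with an adjusted p of 0.0710. These neighbouring genes thus had opposite signs in SS minus C, where CDH3 was not called, and in ADMA minus SS. In ADMA minus C both were higher, at 0.69 for CDH1 and 0.31 for CDH3. These signs are a description and not a test.

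ADMA and C arrays of CDH3 overlapped, with ADMA replicate 1 below C replicate 2, and the difference of 0.31 (SE 0.09) was called at an adjusted p of 0.00853. With each array centred on its median log2 signal the difference turned to -0.20 and was not called (limma adjusted p = 0.151). Under 12 others of the 23 alternatives the call was lost with the sign kept. With the same arrays it was lost with no filter (adjusted p = 0.0127), no intensity trend (0.0265), averaged probe sets (0.0118) or the ADMA and C arrays alone (0.0141). It was also lost without any one of C replicate 1 (0.23, adjusted p = 0.0542), C replicate 3 (0.27, adjusted p = 0.0378), ADMA replicate 2 (0.24, adjusted p = 0.0279), ADMA replicate 3 (0.32, adjusted p = 0.0136) and ADMA replicate 4 (0.31, adjusted p = 0.0162). Leaving out SS replicate 1, 2 or 3, which does not enter the difference itself, gave 0.31 with adjusted p = 0.0109, 0.0120 and 0.0105.

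ESRP1 is an RNA-binding protein that directs the epithelial splicing of transcripts such as those of FGFR2 and CD44. The log2 signal of ESRP1 was 10.85, 10.81, 10.98 and 10.71 in ADMA cells, 10.98, 11.03 and 10.95 in SS cells, and 9.31, 9.20 and 9.37 in C cells. Every array without serum was above every C array, and ADMA and SS arrays overlapped. ESRP1 rose 3.23-fold in SS relative to C cells, a log2 difference of 1.69 (SE 0.08, limma adjusted p = 1.53e-10), and 2.92-fold in ADMA relative to C cells (log2 1.55, adjusted p = 4.21e-10). Between ADMA and SS cells the difference was -0.15 (SE 0.07, adjusted p = 0.126).

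The ESRP1 probe set 219121_s_at gave the same directions, at 10.10 ± 0.30 in ADMA cells, 10.46 ± 0.02 in SS cells and 8.41 ± 0.12 in C cells (log2 signal, SD, n = 4, 3 and 3). Its SS minus C difference was 2.05 and its ADMA minus SS difference -0.36, which was not called (limma adjusted p = 0.0476).

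GRHL2, a grainyhead-like transcription factor that activates CDH1 and claudin genes and represses ZEB1, was not called in any comparison. GRHL2 had log2 signals of 10.10, 10.31, 10.44 and 10.11 in ADMA cells, 10.26, 10.59 and 10.34 in SS cells, and 10.26, 10.33 and 10.13 in C cells. All 3 groups overlapped. Its differences were 0.15 for SS minus C (95% interval -0.08 to 0.38, limma adjusted p = 0.221), -0.16 for ADMA minus SS (adjusted p = 0.235) and -0.00 for ADMA minus C (95% interval -0.22 to 0.21, adjusted p = 0.991).

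OVOL1 is a zinc-finger repressor that favours the epithelial state. Log2 signals of OVOL1 were 10.03, 10.07, 9.91 and 10.03 in ADMA cells, 10.35, 10.17 and 10.12 in SS cells, and 10.26, 10.23 and 10.02 in C cells. ADMA arrays lay below all SS arrays and overlapped the C arrays. No comparison was called, with differences of 0.04 for SS minus C (adjusted p = 0.690), -0.20 for ADMA minus SS (SE 0.08, adjusted p = 0.0649) and -0.16 for ADMA minus C (adjusted p = 0.113). Its second probe set, 206604_at, averaged 7.58 in ADMA cells, 7.90 in SS cells and 7.99 in C cells and was not called either.

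**Figure D2:**
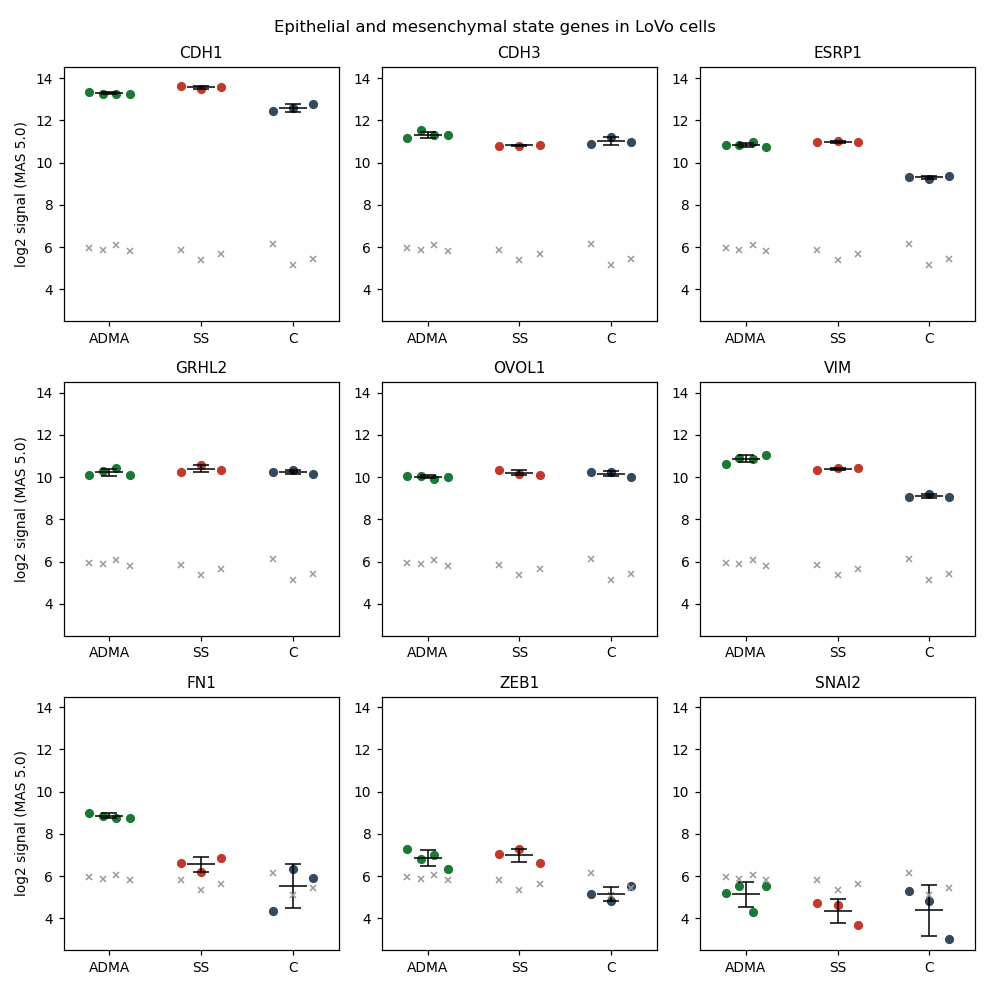
Log2 signal (y axes) of the 9 genes, 1 panel each on its main probe set, on the ADMA, SS and C arrays (x axis), with points for arrays, a bar for the group mean, an error bar for the SD and grey crosses for each array's background level. VIM and FN1 were highest in ADMA cells, CDH1 was highest in SS cells, and SNAI2 lay under background on all 10 arrays.

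VIM encodes vimentin, the intermediate filament of mesenchymal cells. Its log2 signal was 10.64, 10.89, 10.87 and 11.04 in ADMA cells, 10.35, 10.44 and 10.42 in SS cells, and 9.08, 9.19 and 9.04 in C cells. The groups did not overlap, with ADMA highest and C lowest, the only one of the 8 tested genes besides FN1 with that order of means. VIM rose 2.46-fold in SS relative to C cells, a log2 difference of 1.30 (SE 0.09, limma adjusted p = 1.28e-08), and a further 1.37-fold in ADMA relative to SS cells, a log2 difference of 0.46 (SE 0.09, adjusted p = 0.000698). ADMA cells had 3.38-fold more VIM signal than C cells (log2 1.76, adjusted p = 5.34e-10). The second VIM probe set, 1555938_x_at, was under background on all 10 arrays and says nothing on these differences.

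FN1 encodes fibronectin, a secreted matrix glycoprotein bound by integrins. On its main probe set, 210495_x_at, the log2 signal was 9.01, 8.87, 8.77 and 8.76 in ADMA cells, 6.63, 6.19 and 6.87 in SS cells, and 4.37, 6.33 and 5.91 in C cells. Every ADMA array was above every other array, while SS and C arrays overlapped and C replicate 1 was under its array's background level, the 95th percentile of the bacterial control probe sets. FN1 rose 4.89-fold in ADMA relative to SS cells, a log2 difference of 2.29 (SE 0.36, limma adjusted p = 0.000142), which ranked 14 among the rises of the 12342 genes. Relative to C cells it rose 9.96-fold (log2 3.32, SE 0.36, adjusted p = 1.42e-06), at rank 27, and with signals under background raised to that level the difference from C was 2.73 (adjusted p = 1.19e-08). FN1 passed the filter only through the ADMA arrays, so both ranks are descriptions. With no filter on low signal the limma adjusted p was 0.000313 for ADMA minus SS and 3.64e-06 for ADMA minus C. The SS minus C difference of 1.03 (SE 0.38, adjusted p = 0.0276) was not called. It was 0.44 without C replicate 1 (adjusted p = 0.119) and 1.42 without C replicate 2, where it was called (adjusted p = 0.00388).

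FN1 is covered by 7 probe sets, and 4 of them gave higher signals with ADMA. Probe set 211719_x_at averaged 8.25 ± 0.11 in ADMA cells, 4.13 ± 1.11 in SS cells and 3.83 ± 0.65 in C cells (log2 signal, SD, n = 4, 3 and 3), and SS and C were under background on every array. Set against those background levels, ADMA cells had at least 6.20-fold more signal than SS cells and at least 6.44-fold more than C cells. Probe set 216442_x_at averaged 8.47 ± 0.43 in ADMA cells, 5.00 ± 0.98 in SS cells and 4.52 ± 0.80 in C cells.

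In a fit over all probe sets with no filter on low signal, these probe sets were called higher in ADMA than in SS cells, 211719_x_at at a limma adjusted p of 5.9e-05, 216442_x_at at 0.000162 and 212464_s_at at 0.00622. SS was under background on 3, 2 and 1 of its 3 arrays on these probe sets in that order, so no fitted size is given. On 212464_s_at the signal was 7.66 ± 0.38 in ADMA cells, 5.52 ± 1.04 in SS cells and 3.54 ± 0.40 in C cells (log2, SD, n = 4, 3 and 3), with C under background on every array, and ADMA cells had at least 4.28-fold more signal than C cells. Its SS minus C difference was called in that fit (adjusted p = 0.00669), unlike that of the main probe set, with no bound on the fold. The remaining FN1 probe sets, 1558199_at, 214701_s_at and 214702_at, were dim and not called. All 4 probe sets with higher signals carry the suffix _x_at or _s_at, which marks probes that can also bind other transcripts or transcripts of 1 family, so the FN1 result cannot be read from a probe set unique to one transcript.

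**Figure D3:**
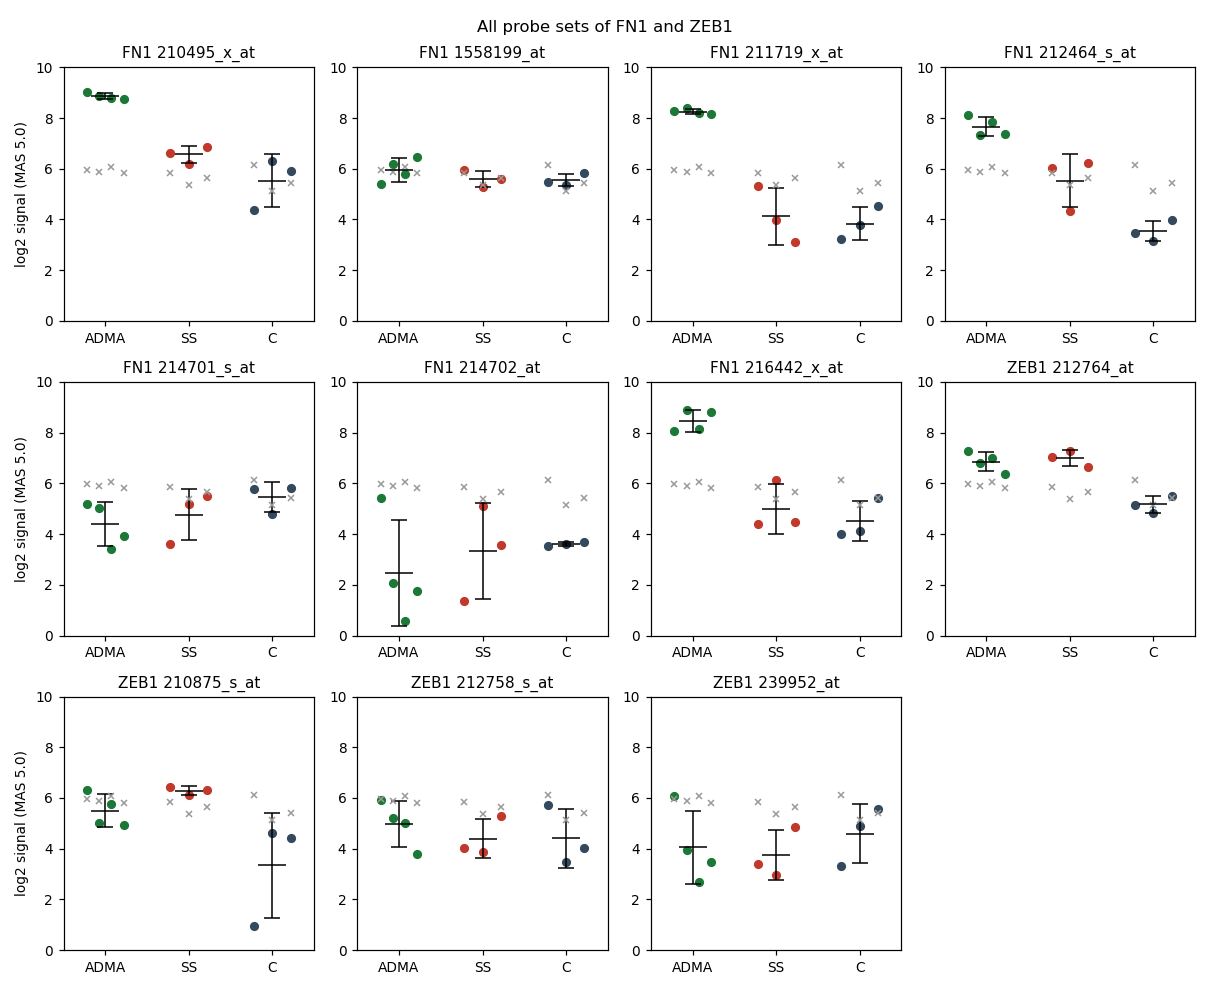
Log2 signal (y axes) of the 7 probe sets of FN1 and the 4 of ZEB1, 1 panel each, on the ADMA, SS and C arrays (x axis), with points for arrays, a bar for the group mean, an error bar for the SD and grey crosses for each array's background level. All ADMA arrays lay above the SS and C arrays on 4 FN1 probe sets, and the ZEB1 probe sets 212758_s_at and 239952_at lay near or under background.

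ZEB1 encodes a zinc-finger repressor of CDH1 and of ESRP1. The log2 signal of ZEB1 was 7.27, 6.81, 6.99 and 6.35 in ADMA cells, 7.04, 7.27 and 6.64 in SS cells, and 5.15, 4.85 and 5.52 in C cells. Every array without serum was above every C array, ADMA and SS arrays overlapped, and 2 of the 3 C arrays were under background. ZEB1 rose 3.51-fold in SS relative to C cells, a log2 difference of 1.81 (SE 0.33, limma adjusted p = 0.000176), and 3.22-fold in ADMA relative to C cells (log2 1.69, adjusted p = 0.000220). These sizes rest on C signals at background. With signals under background raised to that level, the differences were 1.39 for SS minus C (adjusted p = 0.00127) and 1.26 for ADMA minus C (adjusted p = 0.00180), both still called. ZEB1 passed the filter only through the arrays without serum. With no filter the limma adjusted p was 0.000499 for SS minus C and 0.000611 for ADMA minus C. Between ADMA and SS cells the difference was -0.12 (SE 0.31, adjusted p = 0.779).

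On ZEB1 probe set 210875_s_at the signal was 5.50 ± 0.65 in ADMA cells, 6.29 ± 0.16 in SS cells and 3.35 ± 2.06 in C cells (log2, SD, n = 4, 3 and 3). C was under background on every array, SS cells had at least 1.66-fold more signal, and the SS minus C difference missed the threshold in the fit with no filter (limma adjusted p = 0.0112). ZEB1 probe sets 212758_s_at and 239952_at were dim and not called. The rise of ZEB1 in SS cells was therefore called on 1 of 4 probe sets, in a gene whose control level was near background.

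SNAI2, which encodes the CDH1 repressor Slug, was under background on all 10 arrays on its single probe set 213139_at. Its log2 signal was 5.22, 5.52, 4.3 and 5.56 in ADMA cells, 4.71, 4.63 and 3.70 in SS cells, and 5.29, 4.84 and 3.02 in C cells. The groups overlapped, no fold is given, and a level below background says only that it was not detectable on these arrays.

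Ratios between genes within an array do not depend on a constant factor applied to that array, unlike under quantile normalization, and they are given as a description relative to the C mean. The log2 ratio of VIM to CDH1 was 0.79 to 1.26 in ADMA cells, 0.22 to 0.45 in SS cells and -0.25 to 0.15 in C cells, so VIM gained on CDH1 without serum and more so with ADMA. The FN1 to CDH1 ratio was 2.54 to 2.73 in ADMA cells and overlapped between the others, at -0.23 to 0.34 in SS cells and -0.99 to 0.80 in C cells. ESRP1 to CDH1 was 0.75 to 1.01 in ADMA cells, 0.66 to 0.85 in SS cells and -0.11 to 0.19 in C cells.

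CDH3 lay lower relative to CDH1 in both groups without serum than in C cells by mean, and higher in ADMA than in SS cells, with log2 ratios of -0.59 to -0.16 in ADMA cells, -1.25 to -1.10 in SS cells and -0.25 to 0.22 in C cells. GRHL2 to CDH1 was -0.89 to -0.47 in ADMA cells, -1.0 to -0.54 in SS cells and -0.29 to 0.19 in C cells, and OVOL1 to CDH1 was -0.92 to -0.77 in ADMA cells, -1.04 to -0.84 in SS cells and -0.34 to 0.27 in C cells. ZEB1 to CDH1 was 0.51 to 1.36 in ADMA cells, 0.48 to 1.21 in SS cells and -0.31 to 0.16 in C cells. For ZEB1 and FN1 the C mean itself holds arrays under background, 2 of 3 for ZEB1 and 1 of 3 for FN1, which leaves the size of their gain over C uncertain. The ADMA and SS ranges overlapped for ESRP1, GRHL2, OVOL1 and ZEB1 and were apart for VIM, FN1 and CDH3.

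Another scaling of the arrays moved the differences of all 8 genes. Centring each array on its median log2 signal shifted the median of all genes to -0.32 for SS minus C and -0.44 for ADMA minus C, against 0.07 in both as deposited, and to -0.09 for ADMA minus SS, against 0.03. All-gene calls then split as 2014 higher and 5184 lower in SS relative to C cells, against 3738 and 3372 as deposited, and as 1209 and 6101 in ADMA relative to C cells, against 3284 and 2859. For ADMA relative to SS cells 902 were higher, against 1935 as deposited. So centred, CDH3 was called lower in SS than in C cells (-0.60, limma adjusted p = 0.000316), and its ADMA minus C difference turned to -0.20. GRHL2 (-0.51) and OVOL1 (-0.67) were then called lower in ADMA than in C cells, and their SS minus C differences turned to -0.24 and -0.35 without a call. CDH1 lost its call for ADMA minus C (0.18, limma adjusted p = 0.101) and kept that for SS minus C (0.58, adjusted p = 3.36e-05). The ADMA minus SS calls of CDH3 (0.40, adjusted p = 0.0141) and VIM (0.34, adjusted p = 0.0278) were lost too. ESRP1, VIM and ZEB1 stayed called higher in both comparisons with C, FN1 stayed called higher in both comparisons of ADMA, and quantile normalization changed no call of the 8 genes.

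**Figure D4:**
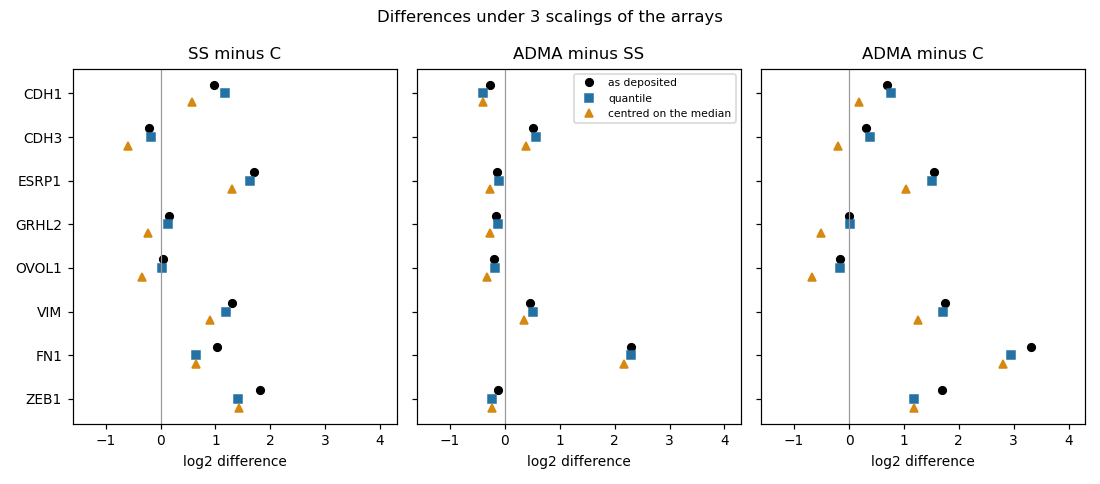
Log2 difference (x axis) of the 8 tested genes (y axis) in the 3 comparisons, with circles for values as deposited, squares for quantile normalization and triangles for arrays centred on their medians. CDH3 in ADMA minus C is at 0.31 as deposited and at -0.20 when centred, and FN1 in ADMA minus SS is above 2 under each scaling.

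Other genes of the epithelial state were counted from lists chosen with results of these data known, beside all-gene shares of 30.3% higher and 27.3% lower for SS minus C and 15.7% higher and 13.8% lower for ADMA minus SS. Of 29 tested genes of epithelial junctions and the cell surface, 14 were higher and 7 lower in SS than in C cells, with a median log2 difference of 0.27 against 0.07 for all genes. Centred on the array median the split was 5 higher and 11 lower. DSC2, the desmosomal cadherin desmocollin 2, rose by 2.27 on the log2 scale in SS relative to C cells (limma adjusted p = 1.89e-11). PRSS8, the membrane protease prostasin, rose by 1.89, with 1 of its 3 C arrays under background. The 7 lower in SS than in C cells, named after their values were seen, were PKP2 (-0.95), LSR (-0.63), CLDN7 (-0.58), AP1M2 (-0.48), MAL2 (-0.37), CLDN3 (-0.35) and CDS1 (-0.32). In ADMA relative to SS cells 5 of the 29 were higher and 6 lower, or 0 and 7 when centred. SPINT1, an inhibitor of membrane serine proteases, fell by 0.63 and MARVELD2, the tight-junction protein tricellulin, by 0.53. The 5 that rose, named after their values were seen, were KRT8 (0.43), PKP2 (0.43), RAB25 (0.42), KRT18 (0.40) and KRT19 (0.34), and none of them was called when centred.

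Of 9 tested genes of the cadherin-catenin complex, 5 were higher and 2 lower in SS than in C cells, or 3 and 3 when centred, and 0 were higher and 2 lower in ADMA than in SS cells under both scalings. The 2 lower in SS than in C cells, named after their values were seen, were NECTIN2 (-0.72) and ADAM10 (-0.32). AFDN, which encodes the junction-to-actin linker afadin, rose by 1.61 in SS relative to C cells (SE 0.06, limma adjusted p = 2.27e-11) and fell by 0.33 in ADMA relative to SS cells (SE 0.06, adjusted p = 0.000408). NECTIN4, an adhesion molecule of the nectin family, averaged 6.04 in ADMA cells, 7.93 in SS cells and 4.86 in C cells and was called in both comparisons, but it reached the minimum signal only through the SS arrays, and 1 of 4 ADMA arrays and 2 of 3 C arrays were under background. Among 10 epithelial regulators of transcription and splicing, 4 were higher and 3 lower in SS than in C cells, or 2 and 5 when centred, and 4 higher and 2 lower in ADMA than in SS cells, or 2 and 2 when centred. GRHL3, a relative of GRHL2, was 2.08 higher in SS than in C cells (adjusted p = 3.44e-06) and fell by 1.35 in ADMA relative to SS cells (adjusted p = 0.000338), and the epithelial factor ELF3 rose by 0.87 and fell by 0.75 in those comparisons. The 4 regulators higher in ADMA than in SS cells, named after their values were seen, were EHF (0.58), OVOL2 (0.50), KLF5 (0.41) and KLF4 (0.32). The 3 lower in SS than in C cells, named in the same way, were EHF (-0.65), FOXA2 (-0.47) and OVOL2 (-0.41). In ADMA relative to C cells EHF (-0.07) and OVOL2 (0.09) were not called.

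Most of the other mesenchymal transcription factors were too dim to test. Of 11 with a probe set 3 were tested, 0 rose, and TCF3, an E-box-binding factor, fell by 0.52 in SS relative to C cells (limma adjusted p = 2.91e-06). Of 14 tested mesenchymal effectors, 6 were higher and 0 lower in SS than in C cells, with a median of 0.35, and 2 were higher and 2 lower in ADMA than in SS cells, with a median of -0.00. The 2 of 14 in each direction with ADMA are near the all-gene shares. Centred, these splits were 2 higher and 3 lower in SS than in C cells, and 0 higher and 2 lower in ADMA than in SS cells. NT5E, the surface enzyme CD73, averaged 11.54 in ADMA cells, 11.56 in SS cells and 9.54 in C cells, a rise of 2.02 in SS relative to C cells. S100A4, a calcium-binding protein, rose by 0.85 in SS relative to C cells and fell by 0.61 in ADMA relative to SS cells, and ACTA2, smooth muscle actin, fell by 0.51 in ADMA relative to SS cells. The 2 effectors higher in ADMA than in SS cells, named after their values were seen, were TGFBI (0.45) and THBS1 (0.42).

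Receptors for fibronectin were described beside FN1. Of 6 tested, 5 were higher and 0 lower in SS than in C cells, with a median of 1.08, and 0 were higher and 3 lower in ADMA than in SS cells, with a median of -0.43, the comparison in which FN1 rose. Centred, 3 were higher and 0 lower in SS than in C cells, and 0 were higher and 4 lower in ADMA than in SS cells. ITGB8, an integrin beta chain, fell by 1.10 in ADMA relative to SS cells (limma adjusted p = 0.00633) and SDC4, a fibronectin-binding proteoglycan, by 0.46 (adjusted p = 0.000602). Beside VIM, 7 other intermediate filament and linker genes were tested, of which 1 was higher and 4 lower in SS than in C cells, and 3 higher and 0 lower in ADMA than in SS cells, or 1 and 0 when centred. LMNB1, the nuclear filament protein lamin B1, averaged 9.64 in ADMA cells, 8.19 in SS cells and 11.49 in C cells, an order unlike that of VIM. SYNM, which encodes the vimentin-binding filament protein synemin, averaged 7.70 in ADMA cells, 6.99 in SS cells and 8.02 in C cells, also unlike VIM. It fell by 1.03 in SS relative to C cells (limma adjusted p = 7.98e-05) and rose by 0.71 in ADMA relative to SS cells (adjusted p = 0.00244). PLEC, the linker plectin, rose by 1.19 in SS relative to C cells.

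**Figure D5:**
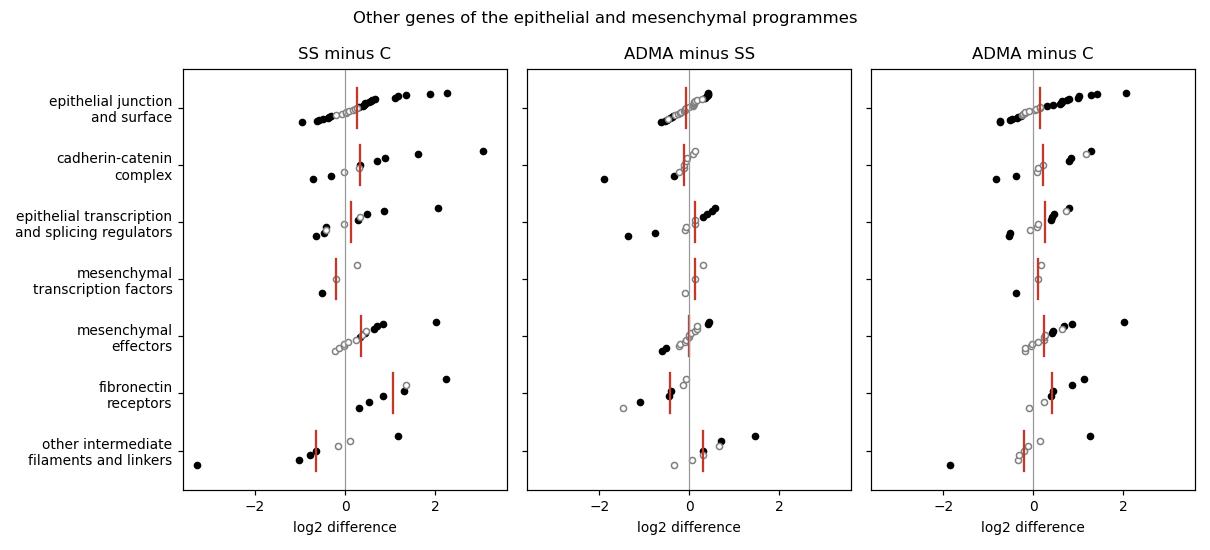
Log2 difference (x axis) of each tested gene, 1 point a gene, in 7 gene lists (y axis) for the 3 comparisons, filled where called and open where not, with a red line at the list's median. Of the 6 fibronectin receptors 5 were higher in SS than in C cells and 3 were lower in ADMA than in SS cells.

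Against control cells, with all-gene shares of 26.6% higher and 23.2% lower, the ADMA-treated cells had 13 of the 29 junction and surface genes higher and 7 lower, 3 of the 9 cadherin-catenin genes higher and 2 lower, and 4 of the 10 epithelial regulators higher and 2 lower. Of the 14 mesenchymal effectors 5 were higher and 0 lower, and of the 6 fibronectin receptors 4 were higher and 0 lower. Of the 3 tested mesenchymal transcription factors 0 were higher and 1 was lower, and of the 7 filament and linker genes 1 was higher and 1 lower. THBS1, the matrix protein thrombospondin 1, rose by 0.86 in ADMA relative to C cells (limma adjusted p = 2.41e-07). When the arrays were centred, the junction and surface genes split as 5 higher and 15 lower, the cadherin-catenin genes as 2 and 4, the epithelial regulators as 1 and 5, the mesenchymal effectors as 2 and 4, the fibronectin receptors as 1 and 0 and the filament and linker genes as 1 and 4.

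The genes whose profiles over the 10 arrays lay closest to a member were found by the root mean square difference between centred log2 signals. The closest to CDH1 were GGA3 (0.0615), ABHD17C (0.0667) and SKAP2 (0.0694), and the closest to VIM were SLC25A16 (0.115), MMP28 (0.121) and LGALS4 (0.127). FN1 had no profile as near in these units, with RGS2 at 0.480, KRT20 at 0.495 and KRT13 at 0.588. The measure is not scaled by a member's own spread, the root mean square of its centred log2 signals. That spread was 1.51 for FN1, 0.85 for ZEB1, 0.75 for VIM, 0.74 for ESRP1, 0.40 for CDH1, 0.24 for CDH3, 0.15 for GRHL2 and 0.13 for OVOL1. Values of different members are therefore not comparable. KRT20, a keratin of differentiated colonic epithelium, averaged 11.63 in ADMA cells, 9.13 in SS cells and 8.14 in C cells. HES1 (0.0929), MOB3B (0.0967) and MED31 (0.100) lay closest to CDH3, TLCD2 (0.0709), LRIG2 (0.0922) and GSAP (0.0923) to ESRP1, and DNASE1 (0.196), TOGARAM1 (0.224) and KLRA1P (0.233) to ZEB1. For the nearly flat profiles of GRHL2 and OVOL1 the closest were C15orf40 (0.0763), GALNS (0.0873) and BORCS8 (0.0903), and PANK4 (0.0633), BBIP1 (0.0643) and GOLGA7 (0.0650).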

How the data were processed

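The authors hybridized total RNA of each culture to an Affymetrix HG-U133 Plus 2.0 array and calculated signals with MAS 5.0. The deposited table gives an intensity on a linear scale for each probe set and array, and every array has the same 2% trimmed mean. The study's filter on a "perfect value" was not applied. The platform annotation pairs 41091 probe sets with 1 symbol, 1801 with several and 11721 with none, and 62 are controls. Only those with 1 symbol named a gene.

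Intensities were taken to log2 with no pseudocount. A gene was tested if its brightest probe set had a mean at or above the median of all probe sets, a signal of 76.3, which left 12342 genes. Differences between group means were tested in R 4.3.3 by limma 3.58.1, using lmFit, eBayes and an intensity trend on all 10 arrays together, with no array dropped or imputed. P-values were adjusted by Benjamini-Hochberg over the genes tested. The thresholds, 0.01 for the adjusted p and 1.2 for the fold, are those of the study's significance analysis of microarrays, which limma replaced here. The background level of an array was the 95th percentile of its 27 Bacillus control probe sets. A fold against a group under background on every array is a lower bound, with each array of that group at the higher of its own log2 signal and its background level.

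The 9 genes, the gene lists and the rule for naming list genes (at most 2 called genes per list and comparison, by size of difference) were chosen with earlier results of these data known. Promoter sequences are from RefSeq. The fit was tested on simulated data. The alternatives tried were other scalings (quantile, centring), other filters on low signal, other limma priors (no trend, array weights), averaged probe sets, no shared probe sets, a pseudocount of 16, a replicate block, only the arrays of the groups compared, a laxer threshold (0.05 with no fold), each array left out in turn and, chosen after seeing the data, dim signals raised to background. Python 3.11.15 with matplotlib 3.10.9 drew the figures.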

Additional observations from a re-analysis of the deposited data

Results flagged for a closer look

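One of 22 groups of 4 probe-set values examined, all of them ADMA groups, had an array far from the others. It was CDH1 on 201131_s_at, where ADMA replicate 1 had a log2 signal of 13.34 and the other ADMA arrays 13.26, 13.26 and 13.27. The gap of replicate 1 to its nearest neighbour was 0.895 of the group's range, above Dixon's 95% critical value of 0.829 for 4 samples, and chance gives about 1 such group in 20. ADMA replicate 1 was still below the lowest SS array, at 13.48. The group's range was small beside the differences from SS and C cells.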

How the results depend on the processing

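Over 24 gene-by-comparison results and 23 settings, 497 of 543 alternative values kept their direction and their side of the threshold, 25 lost the call, 5 gained it and 16 changed sign. One called difference changed sign, that of CDH3 for ADMA minus C, at -0.20 with centred arrays. The others were not called with either sign: GRHL2 for SS minus C at -0.24 and OVOL1 at -0.35 when centred, OVOL1 for SS minus C at -0.0195 with averaged probe sets, GRHL2 for ADMA minus C at 0.0121 with quantile normalization, 0.00502 with array weights and 0.0431 with the replicate block, and ZEB1 for ADMA minus SS at 0.0446 with the replicate block. Leaving out 1 array gave -0.0682 to 0.0444 for GRHL2 in ADMA minus C, -0.0345 to 0.0893 for OVOL1 in SS minus C and -0.293 to 0.0446 for ZEB1 in ADMA minus SS. Centring gave 2014 genes higher and 5184 lower for SS minus C with 1 of the 8 genes lower, 902 genes higher and 1 of the 8 higher for ADMA minus SS, and 1209 higher and 6101 lower for ADMA minus C with 2 of the 8 lower. The fall of CDH1 with ADMA left 0 of the 8 genes lower with no filter (adjusted p = 0.0107), with no intensity trend (0.0260), with averaged probe sets (0.0311) and with the replicate block (0.0152). CDH3 lost its call for ADMA minus C in 12 settings with its sign kept, besides the change of sign when centred. With the mean of probe sets ADMA minus SS had 1 of the 8 genes higher and 942 of all genes lower, and ADMA minus C had 3 of the 8 higher. FN1 and ZEB1 could not be tested in that setting, since their means fell under the filter, nor FN1 without shared probe sets. Leaving out 1 array gave 4 to 5 of the 8 genes higher for SS minus C, 3 for ADMA minus SS, with 0 to 1 lower, and 5 to 6 higher for ADMA minus C. Deviations of same-numbered arrays correlated at -0.0741 to 0.100, so the replicate numbers were not taken to pair the cultures. The replicate block gave 1644 genes higher and 1439 lower for ADMA minus SS, against 1935 and 1704, and changed no other call of the 8 genes. ADMA replicate 4 was alone in its block and so did not enter the differences of that fit. Values with the replicate block therefore combine blocking with the loss of that array, and the 2 cannot be told apart. Dim signals limit FN1 in SS and C cells, ZEB1 in C cells and SNAI2 in all groups. The causes of these changes were not tested.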
